A study of Homo sapiens with 7 samples.

Results

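AML1 and p300 were compared peak by peak in Kasumi-1, an established myeloid leukemia cell line in which the t(8;21) translocation yields the AML1-ETO fusion protein beside normal AML1. The AML1 list held 11692 peaks and the p300 list 11020, so that 22712 of the 70435 deposited peaks were used as members. Leaving out 6 mitochondrial AML1 peaks, 11686 AML1 peaks and 11020 p300 peaks remained. Each was taken as the 100 bp window around its summit, and an AML1 peak was called "with p300" when the 2 windows shared at least 1 bp, that is, when the summits lay at most 99 bp apart. Peaks were then divided by the distance of the summit to the nearest protein-coding transcription start, and peaks within 1000 bp of a start are called near and all others far.

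All libraries came from the same untreated cells in log phase growth and differed in the antibody, which was raised against AML1, ETO (for AML1-ETO), N-CoR, p300 or H3K4me3. The bead washes differed as well, since the methods give a gentler LiCl wash and an added NaCl wash for N-CoR and p300, so that wash and antibody cannot be told apart in a comparison of AML1 with p300. Peak names in the p300 and H3K4me3 lists begin with aml1 and those in the N-CoR list with eto, and each list was used as labelled. According to the study's methods, the AML1 antibody binds the C-terminal part of AML1, which the fusion protein lacks. Reads of 2 biological replicates were pooled before peaks were called, so there was 1 list per antibody with no spread between replicates, no height and no p-value for a peak. No test between samples was possible, and the 95% intervals printed beside shares (Clopper-Pearson, exact) express the counting error among peaks alone. The read depth behind a peak is not held in the lists. Libraries for H3K27me3 and input were not used here.

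AML1 (RUNX1) is the DNA-binding subunit of core binding factor and directs the formation of blood cells through Runx sites in promoters and distal elements. p300, encoded by EP300, is a histone acetyltransferase that does not read DNA sequence itself but is brought to active promoters and enhancers by transcription factors. N-CoR is a co-repressor that carries histone deacetylases, and H3K4me3 is a histone mark of active starts. No enhancer mark was among the lists, so far peaks are described by distance and are not called enhancers.

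The cell type was checked through H3K4me3 at the starts of marker genes, which was found at 12227 of 19821 coding genes (61.7%). It lay at 6 of 8 myeloblast markers (CD33, CD34, PTPRC, CD38, ELANE and SPI1, without MPO and KIT). None of 4 T cell markers and none of 4 erythroid markers carried it. The mark was present at PAX5 among 4 B cell markers, EPCAM among 4 epithelial markers and SERPINA1 among 4 liver markers.

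Reference sequences (GRCh37, plus strand) are shown for the first window of each class in the order of deposition that lies outside UTRs. For far AML1 peaks with p300 the second window (MMADHC) is shown too, and the second windows of the other classes are not. The letters counted further on can thus be seen in place. Capitals mark TGTGGT (the Runx consensus), AGGAAG (an ETS sequence) and CACGTGAC (an E-box sequence known from promoters of lysosomal genes), each on either strand. The first 2 are near AML1 peaks with and without p300, the next is a near p300 peak without AML1, and the other 4 are far peaks, of AML1 with p300 (NARF and MMADHC), of AML1 without p300 (KDM4C) and of p300 without AML1 (PROSER2).
LAMP1, chr13:113951337-113951436: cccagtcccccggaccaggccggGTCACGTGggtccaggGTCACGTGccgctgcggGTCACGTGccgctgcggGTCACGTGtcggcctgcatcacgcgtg
CDK4, chr12:58146254-58146353: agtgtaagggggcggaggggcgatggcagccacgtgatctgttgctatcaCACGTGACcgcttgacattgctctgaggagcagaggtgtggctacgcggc
PTMA, chr2:232571998-232572097: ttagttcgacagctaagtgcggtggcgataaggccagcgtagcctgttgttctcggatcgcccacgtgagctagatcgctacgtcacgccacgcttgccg
NARF, chr17:80455082-80455181: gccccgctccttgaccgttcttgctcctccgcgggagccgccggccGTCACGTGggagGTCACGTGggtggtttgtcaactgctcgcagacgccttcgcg
MMADHC, chr2:150751444-150751543: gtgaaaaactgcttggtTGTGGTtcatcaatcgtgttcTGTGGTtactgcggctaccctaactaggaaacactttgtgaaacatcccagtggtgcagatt
KDM4C, chr9:6704205-6704304: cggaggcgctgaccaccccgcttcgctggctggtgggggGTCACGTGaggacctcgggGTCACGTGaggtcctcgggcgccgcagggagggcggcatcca
PROSER2, chr10:11936634-11936733: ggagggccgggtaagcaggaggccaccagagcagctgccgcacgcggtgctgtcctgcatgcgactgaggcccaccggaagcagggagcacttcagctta

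The LAMP1 window, the first of the AML1 list, lies 167 bp upstream of the start of a gene for a lysosomal membrane protein, and the p300 summit was 10 bp away. It holds the E-box in a row of repeats and no Runx consensus. The CDK4 window, 74 bp upstream of the start of a G1 kinase, had its p300 summit 245 bp away and was thus counted as without p300. The PTMA window, 346 bp upstream of the start of the prothymosin gene, had its nearest AML1 summit 161637 bp away and holds none of the marked sequences. The MMADHC window lies 307202 bp from the nearest coding start, holds the Runx consensus in 2 copies and has its p300 summit 5 bp away. NARF and KDM4C, though over 1 kb from a coding start, hold the E-box and lie within 1000 bp of an H3K4me3 summit. They are not typical of their classes, since CACGTGAC was in 1.09% of far AML1 windows with p300 and 1.10% of those without.

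The first question was whether AML1 meets p300 mostly at promoters or away from them. Of the 3089 AML1 peaks that overlapped p300, 59.5% were far from coding starts and 40.5% (38.7 to 42.2) near them. The share of AML1 peaks with p300 was nonetheless higher near starts. Near starts, 1250 of 3127 AML1 peaks (40.0%, interval 38.3 to 41.7) overlapped p300, against 1839 of 8559 far peaks (21.5%, 20.6 to 22.4). Seen from p300 the order was the opposite, since 17.9% of the 6988 near p300 peaks (17.0 to 18.8) and 45.6% of the 4032 far ones (44.1 to 47.2) overlapped AML1. AML1 was near a start in 26.8% of its peaks and p300 in 63.4%. Both orders held on each of the 23 chromosomes compared (1 to 22 and X). The AML1 share ranged from 28.3% to 50.0% near starts and from 11.6% to 34.3% far from them, and the p300 share from 14.1% to 21.3% and from 36.4% to 56.0%. The levels depended on the window, since near AML1 overlap was 25.2% with 25 bp and 69.7% with 250 bp on each side, and near p300 overlap 11.2% and 32.0%. With the first 5000 peaks of each list near p300 overlap was 10.8%.

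Near starts, many AML1 peaks had p300 close by but not in the same window. The nearest p300 summit lay 100 to 1000 bp away for 34.7% of near AML1 peaks (33.0 to 36.4), whereas this held for only 4.87% of far ones (4.43 to 5.35). No p300 summit was found within 1 kb of 25.3% of near and 73.6% of far AML1 peaks. Most far AML1 peaks thus had p300 either in the same window or more than 1 kb away. The limit of 99 bp divided a continuous distribution near starts, where 71 AML1 peaks lay 90 to 99 bp and 66 lay 100 to 109 bp from p300. Within overlapping pairs the summits were a median of 37 bp apart near starts and 28 bp apart far from them.

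**Figure D1:**
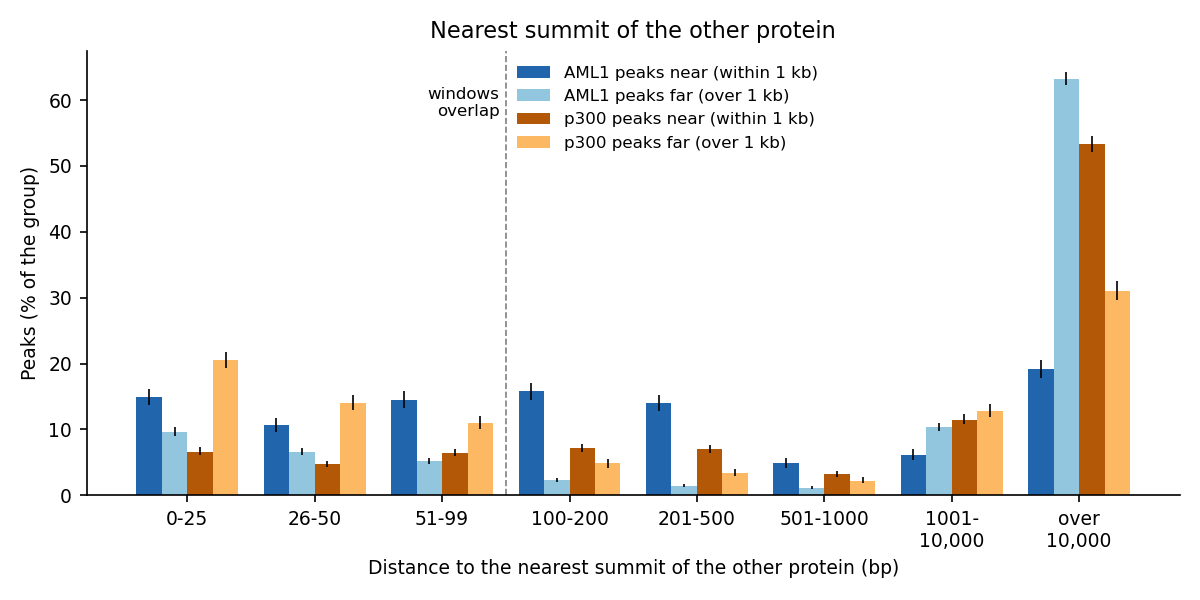
Share of AML1 and p300 peaks (%, y axis) by the distance in bp to the nearest summit of the other protein (x axis), for peaks within and over 1 kb of a coding start, with 95% Clopper-Pearson intervals as error bars and a dashed line at the limit of overlap. Near AML1 peaks fill the bins from 100 to 500 bp that far AML1 peaks leave nearly empty, and 63.3% of far AML1 peaks have no p300 summit within 10 kb.

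The position at the promoter differed with AML1 as well. Near AML1 peaks with p300 had their median 42.5 bp upstream of the start, and 72.7% (70.2 to 75.2) of them lay upstream. The values for near AML1 peaks without p300 were 62 bp and 71.6% (69.5 to 73.6). Near p300 peaks without AML1 were centred on the start, with a median of 0 bp and 49.8% (48.5 to 51.1) upstream. In the overlapping pairs neither protein stood consistently in front, since the p300 summit was downstream of AML1 in 655 pairs, upstream in 576 and at the same base in 19.

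**Figure D2:**
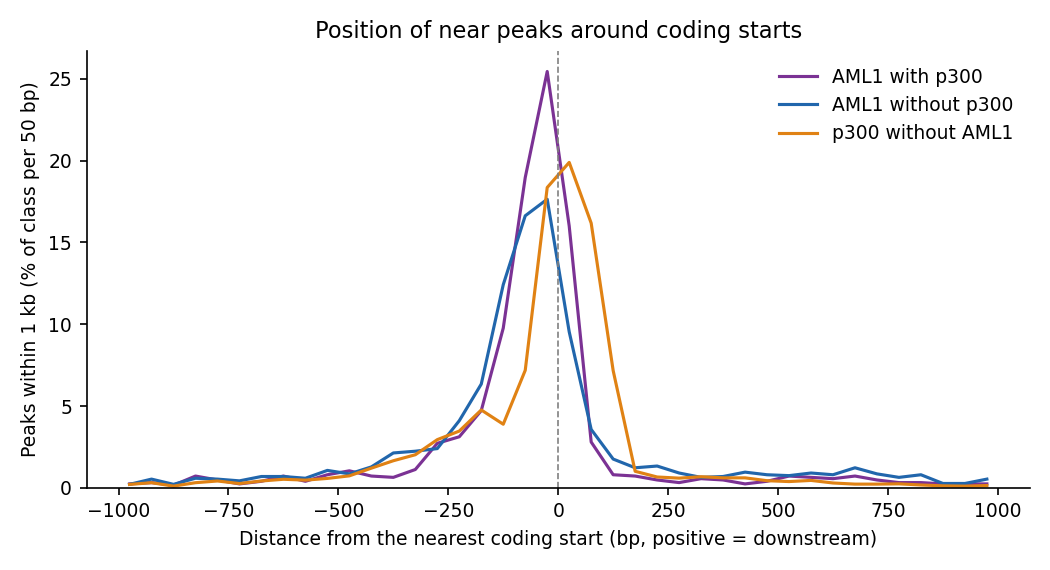
Share of the near peaks of each class per 50 bp (%, y axis) by the signed distance from the nearest coding start (bp, x axis, positive values downstream). The 2 AML1 classes peak just upstream of the start and p300 without AML1 peaks across it, with 25.4% of AML1 peaks with p300 in the last 50 bp before the start.

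Next, the other lists, which did not enter the classes, were set beside them. Far AML1 peaks with p300 overlapped AML1-ETO in 92.4% (91.1 to 93.6) and N-CoR in 90.5% (89.1 to 91.8) of cases, and both in 86.1%. Far AML1 peaks without p300 overlapped AML1-ETO in 73.3% (72.2 to 74.4) and N-CoR in 40.3% (39.2 to 41.5). Far AML1 sites with the co-activator were hence mostly listed for the co-repressor too. Conversely, 38.05% of far AML1 peaks with N-CoR overlapped p300, against 4.16% of those without N-CoR. Near starts these values were 57.0% and 30.4%. When near and far AML1 peaks were each cut into 10 parts of equal size (deciles) by their place in the deposited list, the difference was present in all 10, near and far alike. In the first decile of far AML1 peaks, p300 overlapped 55.8% of those with N-CoR and 5.36% of those without, and in the last decile 28.0% and 4.68%. N-CoR and p300 were washed alike and AML1 otherwise, so wash and protein cannot be told apart in these overlaps.

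Near starts the overlap with both lists was lower. AML1-ETO was found at 63.2% of near AML1 peaks with p300 and at 50.0% of those without, and N-CoR at 51.2% and 25.7%. Near p300 peaks without AML1 had AML1-ETO in 13.7% (12.8 to 14.6) and N-CoR in 10.9% (10.1 to 11.8). Nearly all of them carried H3K4me3 within 1000 bp (96.4%, 95.9 to 96.9), more than near AML1 peaks with p300 (89.6%, 87.8 to 91.2) or without (82.8%, 81.1 to 84.5).

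Far from coding starts, H3K4me3 was more frequent at p300 than at AML1. It lay within 1000 bp of 42.7% (40.6 to 44.8) of p300 peaks without AML1, 17.1% (15.4 to 18.9) of AML1 peaks with p300 and 6.59% (6.01 to 7.21) of AML1 peaks without p300. In addition, 29.2% of far p300 peaks without AML1 were within 1 kb of an annotated start of some other kind of transcript, against 15.5% and 11.3% of the AML1 classes. Part of the far p300 list was thus at starts outside the coding annotation. Among far p300 peaks without H3K4me3, 54.8% (52.9 to 56.7) overlapped AML1, and among those with the mark 25.1% (22.7 to 27.6). Far AML1 peaks overlapped p300 less often at greater distance, in 26.2% of cases from 1 to 10 kb, 21.8% from 10 to 50 kb and 17.4% beyond 50 kb. Seen from p300, the overlap with AML1 was higher at greater distance, at 42.5%, 45.6% and 50.0%.

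**Figure D3:**
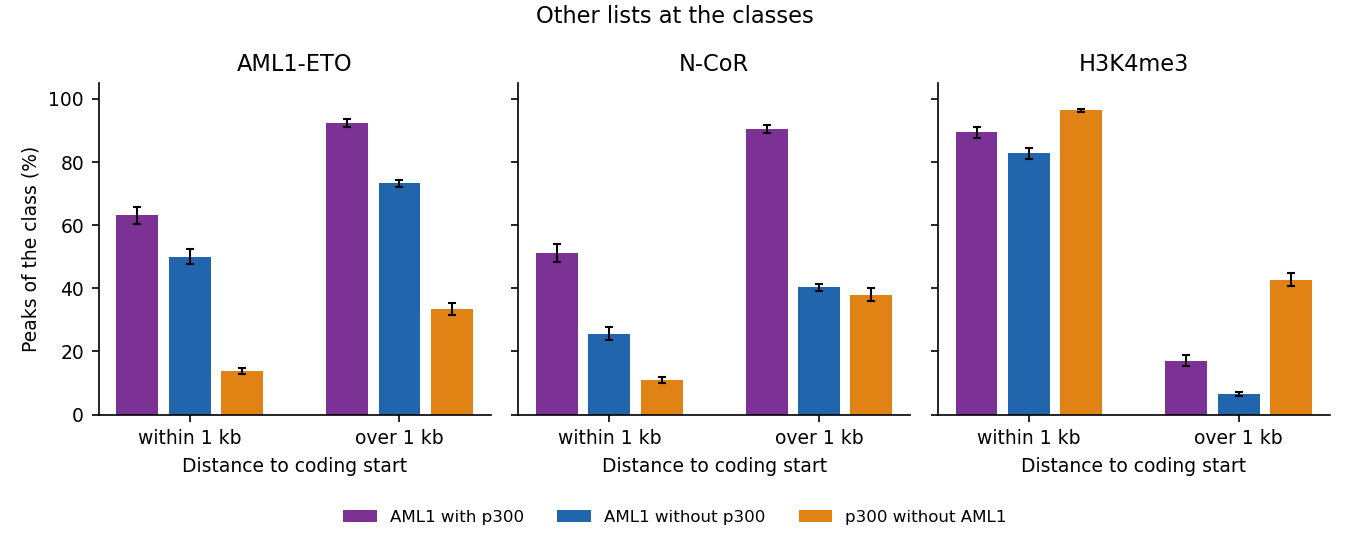
Share of peaks of each class (%, y axis) with an overlapping AML1-ETO window, an overlapping N-CoR window, or an H3K4me3 summit within 1000 bp, for peaks within and over 1 kb of a coding start, with 95% Clopper-Pearson intervals. Far AML1 peaks with p300 stand at 92.4% for AML1-ETO and 90.5% for N-CoR, and far p300 peaks without AML1 have the highest far share of H3K4me3.

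The Runx consensus TGTGGT was less frequent at AML1 peaks where p300 was present. Windows are those of AML1 for both AML1 classes and those of p300 for p300 without AML1. It occurred in 54.6% (53.4 to 55.8) of far AML1 windows without p300 and in 28.7% (26.7 to 30.8) of those with p300. Near starts the shares were 20.0% (18.2 to 21.9) and 13.5% (11.7 to 15.5), whereas 4.11% of windows on all coding starts hold it. With TGCGGT also accepted, the near shares were 39.2% and 28.0%, against 7.09% on all coding starts. p300 windows without AML1 had it in 2.42% near and 3.51% far, which was below the 5.61% and 5.88% found 1000 bp to either side. Counted the other way, 42.7% of far AML1 peaks with the consensus and 58.2% without it overlapped p300 in the first decile of the deposited order, and 3.54% and 17.1% in the last. The order of these values was the same in 10 of 10 deciles far from starts and in 9 of 10 near them, where p300 overlapped 58.7% with and 58.4% without the consensus in the first decile.

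ETS sequences were more frequent at AML1 peaks with p300 than at those without. AGGAAG was in 49.6% (47.3 to 51.9) of far AML1 windows with p300, 41.9% (40.8 to 43.1) of those without and 33.2% (31.2 to 35.2) of far p300 windows without AML1, against 10.4% to 11.99% in the flanks. Near starts its share was 24.2%, 19.8% and 14.4%, against 13.1% of windows on all coding starts. The promoter form CCGGAA was in 23.9% (21.6 to 26.4) of near AML1 windows with p300, 13.5% (12.02 to 15.2) of those without and 14.7% of near p300 windows without AML1, against 9.82% on all coding starts. The CCAAT box, by contrast, was in 19.0% (17.3 to 20.9) of near AML1 windows without p300, 10.16% (8.54 to 11.97) of those with p300 and 6.99% of near p300 windows without AML1. It stood in 9.99% of windows on all coding starts. The classes also differed in base content. G and C made up a mean of 49.3% of far AML1 windows without p300 and 54.7% of those with p300. The mean was 58.7% in far p300 windows without AML1, and near starts the values were 61.2%, 64.1% and 66.0% in the same order. Shares of letters were not adjusted for base content, and the flanks were not matched for it. A match shows the letters and not a bound protein.

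Several of the first AML1 peaks of the list lay at genes of the lysosome. What orders the deposited lists is not given in the sources used here. The first near peaks with p300 belonged to LAMP1, AP5Z1 (a subunit of an adaptor complex of late endosomes) and ATP6V0D1 (a subunit of the proton pump that acidifies lysosomes). They were followed by CLCN6, ATG3, HEXA and KAT5, which like the genes named from lists of the lysosome below were picked after their values were seen. Among the first 100 AML1 peaks, 58 were near a start, and 81.0% (68.6 to 90.1) of these held CACGTGAC, 1.72% the Runx consensus, 10.3% overlapped AML1-ETO and 70.7% overlapped p300. The 42 far peaks among the first 100 had CACGTGAC in 9.52%, the Runx consensus in 57.1% and AML1-ETO in 88.1%.

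Over the whole list, 263 near AML1 peaks held CACGTGAC and 539 held the Runx consensus without it. The first group overlapped AML1-ETO in 17.9% (13.4 to 23.05) and N-CoR in 13.3% (9.45 to 18.0) of cases, and the second in 66.8% (62.6 to 70.8) and 40.6% (36.5 to 44.9). H3K4me3 was beside 96.6% of the first and 68.8% of the second group, and p300 overlapped 41.8% and 31.4%. The other 2325 near AML1 peaks, with neither sequence, overlapped p300 in 41.8% as well, AML1-ETO in 56.9% and N-CoR in 37.3%, and 88.2% lay beside H3K4me3. The E-box was close to the AML1 summit, at a median of 12 bp in near peaks with p300 and 14 bp in those without. It stood in 8.80% and 8.15% of these 2 classes, in 0.471% of near p300 windows without AML1 and in 1.03% of windows on all coding starts. Of 125 near p300 peaks with CACGTGAC, 98 (78.4%, 70.2 to 85.3) overlapped AML1. Which protein was bound at these letters was not tested.

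Along the deposited order, p300 overlapped 58.5% of near AML1 peaks in the first decile and 33.9% in the last, and 49.2% and 11.7% of far ones. AML1 likewise overlapped 31.6% and 10.0% of near p300 peaks and 75.2% and 30.2% of far ones. Peaks early in either list thus met the other protein more often than late ones. AML1-ETO was at 93.8% of far AML1 peaks in the first decile and 58.3% in the last. CACGTGAC was in 33.9% of near AML1 peaks in the first decile, 8.95% in the next and 4.47% in the last.

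**Figure D4:**
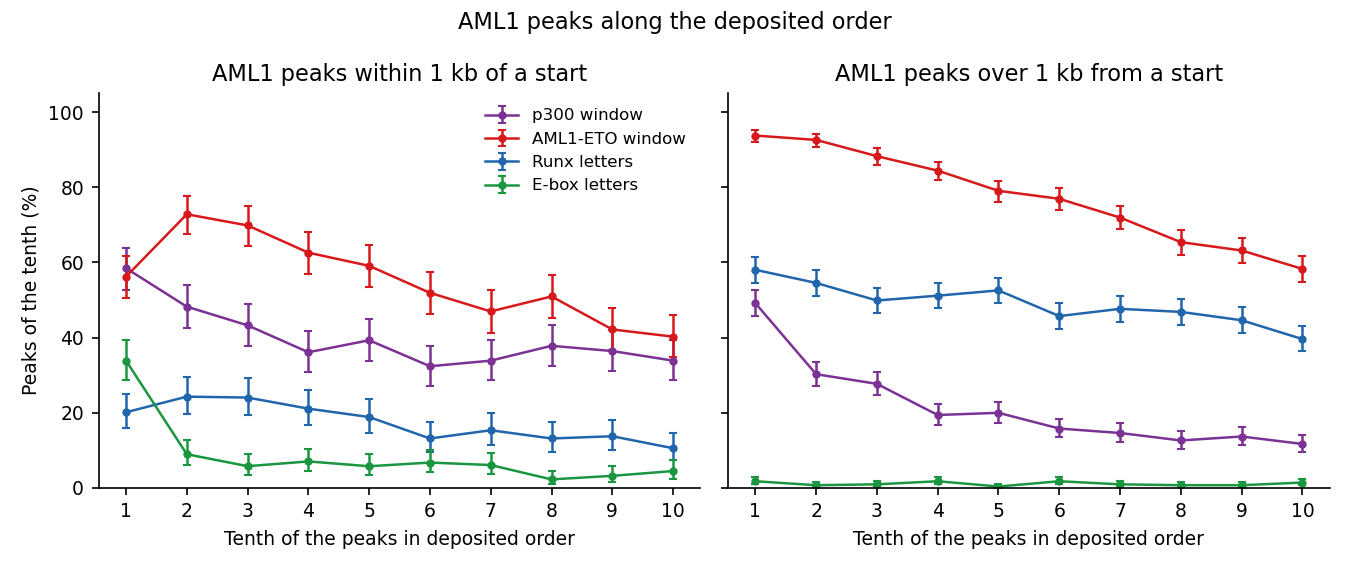
Share of AML1 peaks (%, y axis) that overlap p300 or AML1-ETO or hold the Runx consensus or the E-box CACGTGAC, in deciles of the deposited order (x axis), within 1 kb (left) and over 1 kb (right) of a coding start, with 95% Clopper-Pearson intervals. The E-box reaches 33.9% in the first decile of near peaks against 8.95% in the next, where AML1-ETO is at 72.8% after 56.2% in the first.

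Of the 19821 coding genes, 1410 (7.11%) had an overlapping pair of AML1 and p300 within 1000 bp of a start. A near AML1 peak without p300 was found at 2105 genes (10.6%) and a near p300 peak without AML1 at 6037 (30.5%), and a gene could be counted in more than 1 class. A further 1312 genes had both proteins at the promoter in windows that did not overlap, 690 had AML1 only and 4461 p300 only. H3K4me3 was at a start of 97.0% of the genes with a pair, 99.2% of those with both proteins apart, 98.6% of those with p300 only and 81.4% of those with AML1 only. It was at 38.5% of the 11948 genes with neither.

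At promoters, pairs of AML1 and p300 were frequent at granule genes, against 7.11% of all coding genes. They were at 8 of 19 (42.1%) genes for granule proteins of myeloid cells, among them neutrophil and eosinophil proteins, where 31.6% of the list carried H3K4me3 against 61.7% of all coding genes. MPO (myeloperoxidase) had 2 near pairs, 90 and 976 bp upstream of its start, and a far pair 4072 bp upstream. All 3 of these AML1 windows overlapped AML1-ETO and N-CoR. The pair at AZU1 (azurocidin) had its AML1 summit 50 bp upstream of a start, and that at PRSS57 (a serine protease) 31 bp upstream. ELANE (neutrophil elastase) had only a near p300 peak without AML1, and LYZ (lysozyme) only a near AML1 peak without p300. LTF had no near peak.

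Blood transcription factors had a near pair at 11 of 32 (34.4%) genes, against 7.11% of all coding genes. H3K4me3 was at a start of 90.6% of this list, against 61.7% of all coding genes. The pairs were at GFI1, TAL1, LMO2, LYL1, FLI1, MEIS1, ETV6, ELF1, ZEB2 and MEF2C with 1 each and at HHEX with 2. SPI1 (PU.1), CEBPA and CEBPB had p300 without AML1 at the promoter, and at SPI1 the p300 summit lay 64 bp upstream of the start. RUNX1 had 2 near AML1 peaks and 2 near p300 peaks, none of which overlapped. The AML1 peak 8 bp upstream of its start held the Runx consensus and had its nearest p300 summit 2141 bp away. At the promoter of CBFA2T3, a relative of ETO, 2 pairs were found, 570 and 59 bp upstream of starts.

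Genes with pairs in other lists included NCF4 (2 near pairs) and RAC2, which encode subunits of the NADPH oxidase, WAS (2 near pairs), the Wiskott-Aldrich protein of the actin skeleton, SPN (CD43), ITGB2 (2 near pairs each) and IER2 (2 near pairs), an immediate early gene. Against 7.11% of all coding genes, near pairs were at 2 of 8 NADPH oxidase genes, 10 of 38 (26.3%) genes of myeloid signalling, 5 of 28 of surface and adhesion and, close to the share of all genes, 2 of 24 (8.33%) cytokine receptors. In the BCL2 family 1 of 13 genes (7.69%) had a pair (BAX), which was also close to that share. None of the 13 had AML1 without p300, against 10.6% of all coding genes, and 7 of 13 (53.8%) had p300 without AML1, among them MCL1 and BCL2L1, against 30.5%. H3K4me3 was at a start of 92.3% of BCL2 family genes and 89.5% of myeloid signalling genes, against 61.7% of all coding genes. The genes with most near pairs were SH3BP2 and SEPTIN9, each with 3.

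Near p300 without AML1 was frequent, against 30.5% of all coding genes, in genes that every cell uses. It was at 67 of 86 (77.9%) genes for ribosomal proteins, 58 of 78 (74.4%) for mitochondrial ribosomal proteins, 59 of 79 (74.7%) splicing factors and 28 of 39 (71.8%) proteasome subunits. The shares were lower for complex I subunits (62.2%), initiation factors (51.9%) and mediator subunits (50.0%). The first such peaks in the list belonged to HNRNPH3 (an RNA-binding protein) and ANP32E (a histone chaperone), at 25 bp upstream and 1 bp downstream of the start. Pairs with AML1 were at 17.4%, 15.4%, 20.3% and 17.9% of the first 4 lists, also above the 7.11% of all coding genes. H3K4me3 was at a start of 94.2%, 98.7%, 92.4% and 94.9% of these 4 lists, against 61.7% of all coding genes. How far the shares of p300 and of pairs follow the mark was not tested. AML1 without p300 was at 24.4% of ribosomal protein genes and 30.4% of splicing factors, against 10.6%. Co-activator and co-repressor genes had p300 without AML1 at 14 of 19 (73.7%), and EP300 itself had 2 such peaks. No near peak of either protein was at any of 390 olfactory receptor or 55 keratin genes, while 17.2% of all coding genes had a near AML1 peak and 36.2% a near p300 peak.

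Lists of lysosomal genes, added after the first peaks had been seen, had near pairs at 12 of 43 (27.9%) enzymes, 9 of 20 (45.0%) membrane proteins and 7 of 22 (31.8%) subunits of the proton pump, against 7.11% of all coding genes. These shares describe a choice made on the same peaks. H3K4me3 was at a start of 97.7%, 100% and 72.7% of these lists in turn, against 61.7% of all coding genes. AML1 peaks with CACGTGAC were at 8 of the enzymes, of which 6 overlapped p300, among them HEXA, GLA and CTSA, while those at GAA and CTSD did not. They were at 5 membrane proteins (LAMP1, MCOLN1, CLCN7, CLN3 and MFSD1), all with p300, and at 6 pump subunits. Among all 19821 coding genes, 314 (1.58%) had such a peak at the promoter, and 131 (0.661%) had one that overlapped p300.

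Far from starts, each peak was assigned to the gene with the nearest coding start, which need not be the gene it acts on. Pairs of AML1 and p300 were assigned to 1394 genes (7.03%), AML1 without p300 to 4347 (21.9%) and p300 without AML1 to 1686 (8.51%). Of the genes with a near pair, 153 (10.9%) also had a far pair, against 10.4% of genes with AML1 only at the promoter, 8.74% with p300 only, 7.77% with both proteins apart and 5.67% with neither. There were 3 or more far pairs at 89 genes, with no account taken of the spacing between genes.

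Blood transcription factors, myeloid signalling genes, myeloblast markers, AP-1 and immediate early genes and cytokine receptors had far pairs at more genes than near pairs. So did surface and adhesion genes (8 of 28 far against 5 near) and co-activators and co-repressors (4 of 19 against 3). In the BCL2 family 4 of 13 genes (30.8%) had a far pair and 1 a near pair. The order was reversed for granule genes (5 of 19 far against 8 near), NF-kB genes (3 of 15 against 4) and G1 and cell cycle genes (1 of 14 against 2). It was also reversed for lists such as ribosomal proteins (6 of 86 against 15) and splicing factors (7 of 79 against 16). NADPH oxidase genes had 2 of 8 on each side. These differences were not tested. Far pairs were at 21 of 32 (65.6%) blood transcription factors, 21 of 38 (55.3%) genes of myeloid signalling, 6 of 8 myeloblast markers, 9 of 22 (40.9%) AP-1 and immediate early genes and 8 of 24 (33.3%) cytokine receptors, against 7.03% of all coding genes. Among the small marker lists of other cell types, they were also at 2 of 4 liver markers (APOA1 and SERPINA1), 1 of 4 T cell markers (CD3E), 1 of 4 B cell markers (CD79A) and none of 4 erythroid or 4 epithelial markers. For ribosomal proteins the count was 6 of 86 (6.98%), for splicing factors 7 of 79 (8.86%) and for initiation factors none of 52. Counting near and far pairs together, 25 of 32 blood transcription factors (78.1%) and 26 of 38 myeloid signalling genes (68.4%) had one, against 13.4% of all coding genes. In 14 of the 32 transcription factors (43.8%) the pair was far only, against 6.26% of all coding genes. The other far classes were frequent in these lists too. Far AML1 without p300 was at 62.5% of blood transcription factors and 60.5% of myeloid signalling genes, against 21.9% of all coding genes. It was at 77.3% of AP-1 and immediate early genes and 54.2% of cytokine receptors. Far p300 without AML1 was at 46.9%, 31.6%, 45.5% and 45.8% of these lists, in the same order, against 8.51%. No account was taken of the spacing between genes.

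RUNX1 itself had 5 far pairs, 6 far AML1 peaks without p300 and 1 far p300 peak without AML1. The summits of its pairs were 0, 4, 7, 9 and 27 bp apart, and all 5 AML1 windows overlapped AML1-ETO and N-CoR while none lay within 1000 bp of an H3K4me3 summit. The pair with identical summits (chr21:36280801-36280900, 18764 bp upstream of the nearest RUNX1 start) held no Runx consensus, whereas the one at chr21:36399140-36399239 did. Both lie within the gene and outside exons.

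KIT, the stem cell factor receptor, had 4 far pairs, of which 1, 115451 bp downstream of its start, stood at place 16 of the p300 list and 75 of the AML1 list. CD34 had 2 far pairs, 28469 and 26417 bp downstream of its nearest start, while the AML1 peak 19 bp upstream of that start had its nearest p300 summit 26426 bp away. SPI1 had a far pair 1600 bp downstream of its start, and CEBPA one 28415 bp downstream. CEBPB had 3 far pairs between 81449 and 158652 bp from its start. At PTPRC (CD45), 2 far pairs stood beside 5 far AML1 peaks without p300. MEF2C had 8 far AML1 peaks without p300 and no far pair.

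Some other genes had several far pairs, among them GSE1 and ID2 with 8 each and ZFP36L2 and PLCG2 with 5 each, while the highest number at any gene was 11. ID2 encodes an inhibitor of basic helix-loop-helix factors, ZFP36L2 an RNA-binding protein that promotes mRNA decay and PLCG2 a phospholipase of immune signalling. The 8 pairs of ID2 were spread from 34174 to 778764 bp upstream of its start, all 8 AML1 windows overlapped AML1-ETO and N-CoR, and its promoter had p300 without AML1 34 bp downstream of the start. BCL2, the anti-apoptotic founder of its family, had 4 far pairs between 19851 and 59534 bp downstream of its start, and GRK2, a receptor kinase, had 4 within 11197 bp. PREX1, GOT2, SEPTIN9 and BCAS1 had 8 far AML1 peaks without p300 each, as MEF2C did, and the highest number at any gene was 12. Far p300 peaks without AML1 were most numerous at BAHCC1 with 8 and at ZFP36L2, ZMIZ1 and FRMD8 with 6 each.

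**Figure D5:**
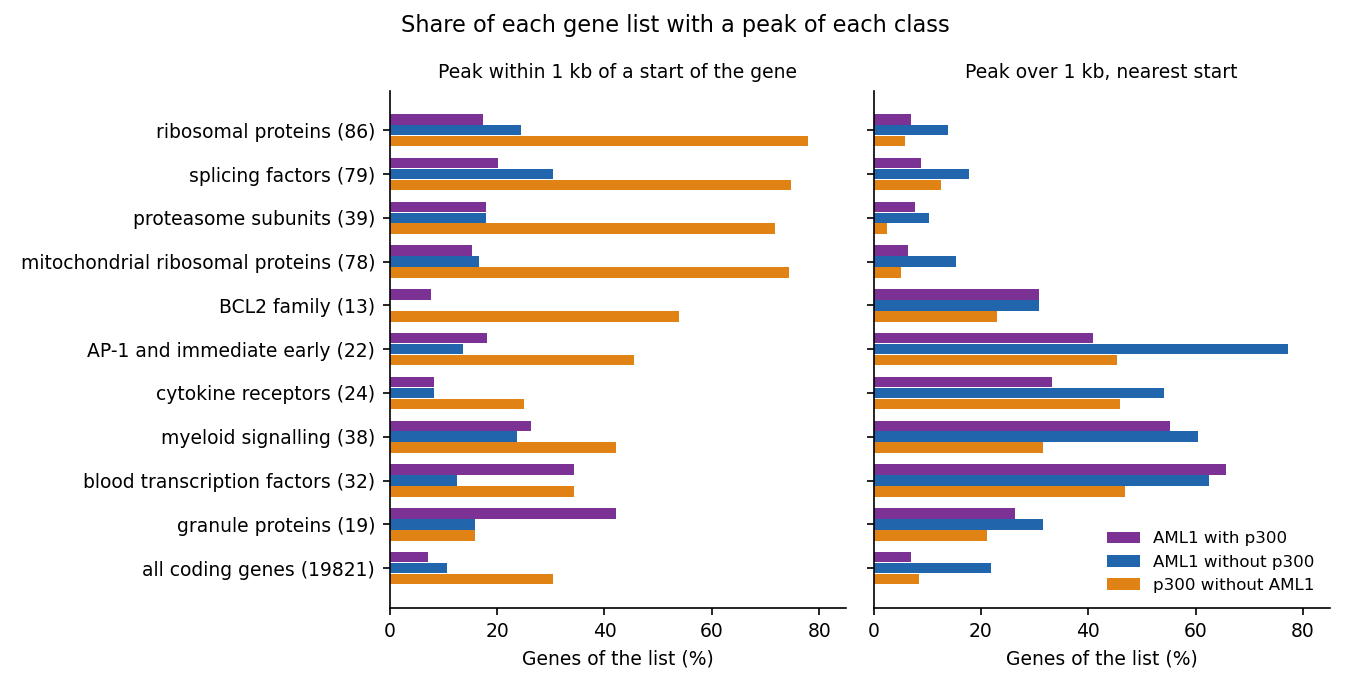
Share of the genes of each list (%, x axis, number of genes in brackets) with a peak of each class within 1 kb of a start (left) or assigned by the nearest start over 1 kb away (right). Bars for p300 without AML1 near starts reach 71.8% to 77.9% in ribosomal, splicing and proteasome lists, and far bars for AML1 with p300 reach 65.6% in blood transcription factors against 7.03% of all coding genes.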

How the data were processed

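ChIP-seq libraries of Kasumi-1 cells were used as the peak lists the authors deposited. According to the study's methods and the submitters' processing notes, reads (base calls by CASAVA 1.6) were aligned to GRCh37 (hg19) with Bowtie 0.12.8 allowing 2 mismatches, and those of 2 biological replicates were pooled. Peaks were called with MACS2 2.0.10.20131216 at a threshold of 1e-20. The deposited values are positions only.

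Windows of 50 bp to either side of a summit were overlapped at 1 bp or more. Starts were those of coding transcripts of coding genes in GENCODE release 44 lifted to GRCh37 (78703 starts, 19821 genes). A gene had a near peak within 1000 bp of any of its starts. A far peak went to its nearest start. Consensus letters were counted on either strand of the window, and the flanks were windows 1000 bp to either side. Repeats were not used here.

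Members, gene lists and comparisons were chosen with earlier results of these data known. Genes were named by rule: those of the first 3 peaks in deposited order, the 3 with most peaks and up to 4 of each list for each class and side, without chromosome 8. Genes named beyond the rule were chosen after their values were seen, as was CACGTGAC. Sequences shown are from the first 2 windows of each class outside UTRs. All planted overlaps (100.0%) were recovered from simulated data, with 0 false calls. This checked only that the code applied the limit of 99 bp, and not the accuracy of the peaks. Python 3.11.15, SciPy 1.17.1 and pysam 0.24.0 were used.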

Additional observations from a re-analysis of the deposited data

How the results depend on the processing

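The order of the shares, AML1 higher near and p300 higher far, held in 36 of 36 settings. Leaving out each chromosome gave 39.7% to 40.4% for near AML1 peaks with p300, 21.0% to 21.8% for far ones, 17.7% to 18.0% for near p300 peaks with AML1 and 45.1% to 46.4% for far ones. The same 4 shares, in that order, moved to 25.2%, 16.1%, 11.2% and 34.1% with windows of 25 bp to either side, to 55.8%, 23.8%, 25% and 50.4% with 100 bp, and to 69.7%, 25.2%, 32.0% and 53.9% with 250 bp. With the first 5000 peaks of each list, in which fewer peaks of the other protein can be met, they were 31.5%, 17.2%, 10.8% and 41.3%. A promoter distance of 500 bp moved far p300 to 43.5%, 2000 bp moved near p300 to 18.8%, and 5000 bp moved the first 3 shares to 36.1%, 20.4% and 20.5%. Starts of any biotype gave 36.8% for near AML1, 19.4% for near p300 and 50.0% for far p300, and only the 5' end of each gene gave 22.6% for far AML1, 16.9% for near p300 and 40.8% for far p300. Alternatives chosen after seeing the data were to leave out peaks with CACGTGAC (near p300 16.8%) and far peaks with H3K4me3 (far AML1 19.5%, far p300 54.8%). Counting both proteins within 1000 bp of a gene's starts as together gave 2720 genes with a pair and 692 with AML1 without p300. The latter differs slightly from the 690 genes with AML1 only given above, where overlapping pairs were set apart first. The other 13 of 15 gene counts stayed within 1.5 times. The shares of H3K4me3, Runx and ETS stayed within their intervals in 2 of 48 alternatives, since these widen or narrow the window or change the letters. With CCGGAA in place of AGGAAG, the far ETS shares were 8.92% for AML1 with p300, 4.38% for AML1 without and 9.21% for p300 without AML1. A stricter peak threshold was not run because it needs a score. No paired analysis was possible because each antibody has 1 pooled list.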
